A study of Mus musculus with 26 samples.

Results

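Of the 55401 genes in both deposited count tables, 10 that mark blood vessel endothelium or encode receptors for vascular growth factors were followed through 26 RNA-seq libraries of mouse sensory ganglia and of neurons cultured from them. The ganglia are dorsal root ganglia (DRG), which lie beside the spinal cord and hold the cell bodies of sensory neurons. The genes were taken from a list by symbol: *Pecam1*, *Cdh5*, *Kdr*, *Flt1*, *Tek*, *Tie1*, *Cldn5*, *Egfl7*, *Emcn* and *Vwf*. That list was chosen with earlier results of these data known. All 10 were present in both tables and passed the filter on low counts in every fit. The list asks how much RNA of vessel-lining cells each kind of sample held, and in particular how cultures of DRG neurons compared with whole ganglia.

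The mice were made to lose *Ahr*, the gene of the aryl hydrocarbon receptor, from neurons. Conditional knockout (cKO) mice were Ahr f/f Thy1-CRE(ERT2/EYFP), with 2 floxed alleles and an inducible Cre recombinase under the *Thy1* promoter, which drives expression in neurons. Control mice were Ahr fl/+, Ahr fl/fl or Ahr f/+, with no Cre named in their genotype. The libraries of naive ganglia (3 control, 3 cKO) and of injured ganglia (3 control, 3 cKO) came from mice given tamoxifen at 28 weeks (100 mg/kg daily for 5 days) and taken 5 weeks later, the injured ones 1 day after the sciatic nerve was crushed. A supplemental set held semi-purified DRG neurons from Ahr fl/fl control (3) and cKO (3) mice, 24 hours after seeding. It also held ganglia taken 1 day after sham surgery from 2 control mice (1 Ahr f/+ and 1 Ahr fl/fl) and 2 cKO mice, with 1 library from the ipsilateral (operated) and 1 from the contralateral side of each mouse. Ganglia were L4 to L6. The naive and culture libraries are labelled female and the sham libraries male, as are 1 control and 1 cKO library of the injured groups. No tamoxifen is stated for the mice of the supplemental set.

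Total counts per library were 20169388 to 23540375 in naive and injured ganglia, 39306414 to 58751270 in sham ganglia and 25299938 to 88180611 in the cultures. Levels are given as CPM, counts scaled by library size to a common total. *Ahr* overlapped between genotypes in every set, for example at 18.0 to 22.8 CPM in naive control and 21.4 to 26.8 in naive cKO ganglia. The counts cover the whole gene and do not single out its floxed part, and whether *Ahr* was deleted was not tested. *Thy1*, whose promoter the transgene carries, was higher in every cKO library than in every control library of its set (in the cultures, 667 to 741 against 257 to 455 CPM). In 2 injured libraries *Xist* and Y-linked counts were at odds with the labelled sex. Control 3, labelled male, read as female, and cKO 2, labelled female, read as male. By the counts, injured cKO 2 and 3 were male and the other naive and injured libraries female. Sex therefore differed between injured and naive cKO ganglia and between the injured genotypes.

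Endothelial cells line blood vessels and are held together by adhesion molecules at their borders. PECAM1 and VE-cadherin (*Cdh5*) sit at these junctions, and claudin-5 (*Cldn5*) seals the tight junctions of vessels with a barrier, including those of the nervous system. VEGF receptors (*Flt1*, *Kdr*) and the angiopoietin receptor TIE2 (*Tek*) with its partner TIE1 receive the signals by which vessels sprout, mature and stay quiescent. The vessels of the DRG are known for being more permeable than those of the brain. In bulk RNA a difference in level can come from more or fewer endothelial cells or from more or less RNA of the gene per cell, and these cannot be told apart here.

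In GRCm38 (GENCODE M21) the junction genes lie at chr11:106654217-106750628 (*Pecam1*, minus strand), chr8:104101625-104144511 (*Cdh5*, plus strand) and chr16:18776847-18778262 (*Cldn5*, plus strand, a single exon). The receptor genes lie at chr5:75932827-75978458 (*Kdr*, minus strand), chr5:147561604-147726011 (*Flt1*, minus strand), chr4:94739289-94874976 (*Tek*, plus strand) and chr4:118471191-118490061 (*Tie1*, minus strand). *Emcn* (chr3:137341067-137432185), *Vwf* (chr6:125546774-125686679) and *Egfl7* (chr2:26580014-26593120) are all on the plus strand. Counts were made over the whole gene with introns, without regard to strand, so *Egfl7* is uncertain: it overlaps *Gm20532*, whose counts came to 188% of its own in the ganglia and 93.0% in the cultures, and *Agpat2*. *Cdh5* overlaps the antisense gene *Gm29682*, with 1.47% of its counts, and the other 8 genes overlap no annotated gene.

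RefSeq promoter windows (250 bases before to 50 bases after a gene's start, GRCm38.p6) were at hand for 7 of the 10 genes, in 9 windows. ETS factors are transcription factors known to act at many endothelial genes, and their core motif was searched as AGGAAG and as CCGGAA on both strands. Either form was present in 6 of the 9 windows (5 of the 7 genes), against 45.2% of all 32851 windows of this length. The windows shown are 3 of the 9: that of *Emcn*, the gene with the largest difference described next, and those of both VEGF receptors. They lie at chr3:137340828-137341127 (*Emcn*, plus strand), chr5:75978406-75978705 (*Kdr*, minus strand) and chr5:147725962-147726261 (*Flt1*, minus strand). Capitals mark matches to either ETS form or to the cyclic AMP response element TGACGTCA, on either strand, which 1.79% of all windows hold.
Emcn: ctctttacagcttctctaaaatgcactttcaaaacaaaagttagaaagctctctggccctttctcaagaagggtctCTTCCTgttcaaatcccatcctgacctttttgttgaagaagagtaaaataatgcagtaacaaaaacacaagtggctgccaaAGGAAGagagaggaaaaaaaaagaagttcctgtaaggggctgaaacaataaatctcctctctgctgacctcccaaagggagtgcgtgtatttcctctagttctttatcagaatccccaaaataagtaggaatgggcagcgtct
Kdr: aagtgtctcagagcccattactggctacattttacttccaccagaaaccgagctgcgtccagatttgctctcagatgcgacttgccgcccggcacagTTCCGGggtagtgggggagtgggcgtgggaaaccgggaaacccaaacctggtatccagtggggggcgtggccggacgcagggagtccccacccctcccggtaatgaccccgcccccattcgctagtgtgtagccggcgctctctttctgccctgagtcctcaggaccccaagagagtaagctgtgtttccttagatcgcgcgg
Flt1: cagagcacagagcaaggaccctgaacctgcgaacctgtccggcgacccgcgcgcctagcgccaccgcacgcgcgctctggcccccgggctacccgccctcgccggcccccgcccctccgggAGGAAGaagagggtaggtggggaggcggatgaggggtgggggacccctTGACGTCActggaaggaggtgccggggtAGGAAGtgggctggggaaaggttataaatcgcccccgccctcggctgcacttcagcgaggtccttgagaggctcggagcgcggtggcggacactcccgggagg
The window of *Emcn* held 2 matches to AGGAAG, that of *Kdr* 1 match to CCGGAA, and that of *Flt1* 2 matches to AGGAAG and the only TGACGTCA among the 9 windows. A match is a stretch of letters and no evidence of binding. The GATA motif AGATAA, searched on both strands, was present in a window of 1 of the 7 genes (*Tek*), against 11.2% of all windows.

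All 10 genes were higher in the neuron cultures than in the ganglia. Each of the 6 cultures lay above each of the 20 ganglion libraries for every 1 of the 10 genes, a separation that 20.7% of the 24101 genes on the common scale showed. The summed level of the 10 genes was 1421 to 2100 CPM in the cultures, against 161 to 268 in naive, 172 to 208 in injured and 138 to 249 in sham ganglia. CPM values are on 1 scale over all 26 libraries (with TMM factors), and folds come from edgeR fits of the counts.

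**Figure D1:**
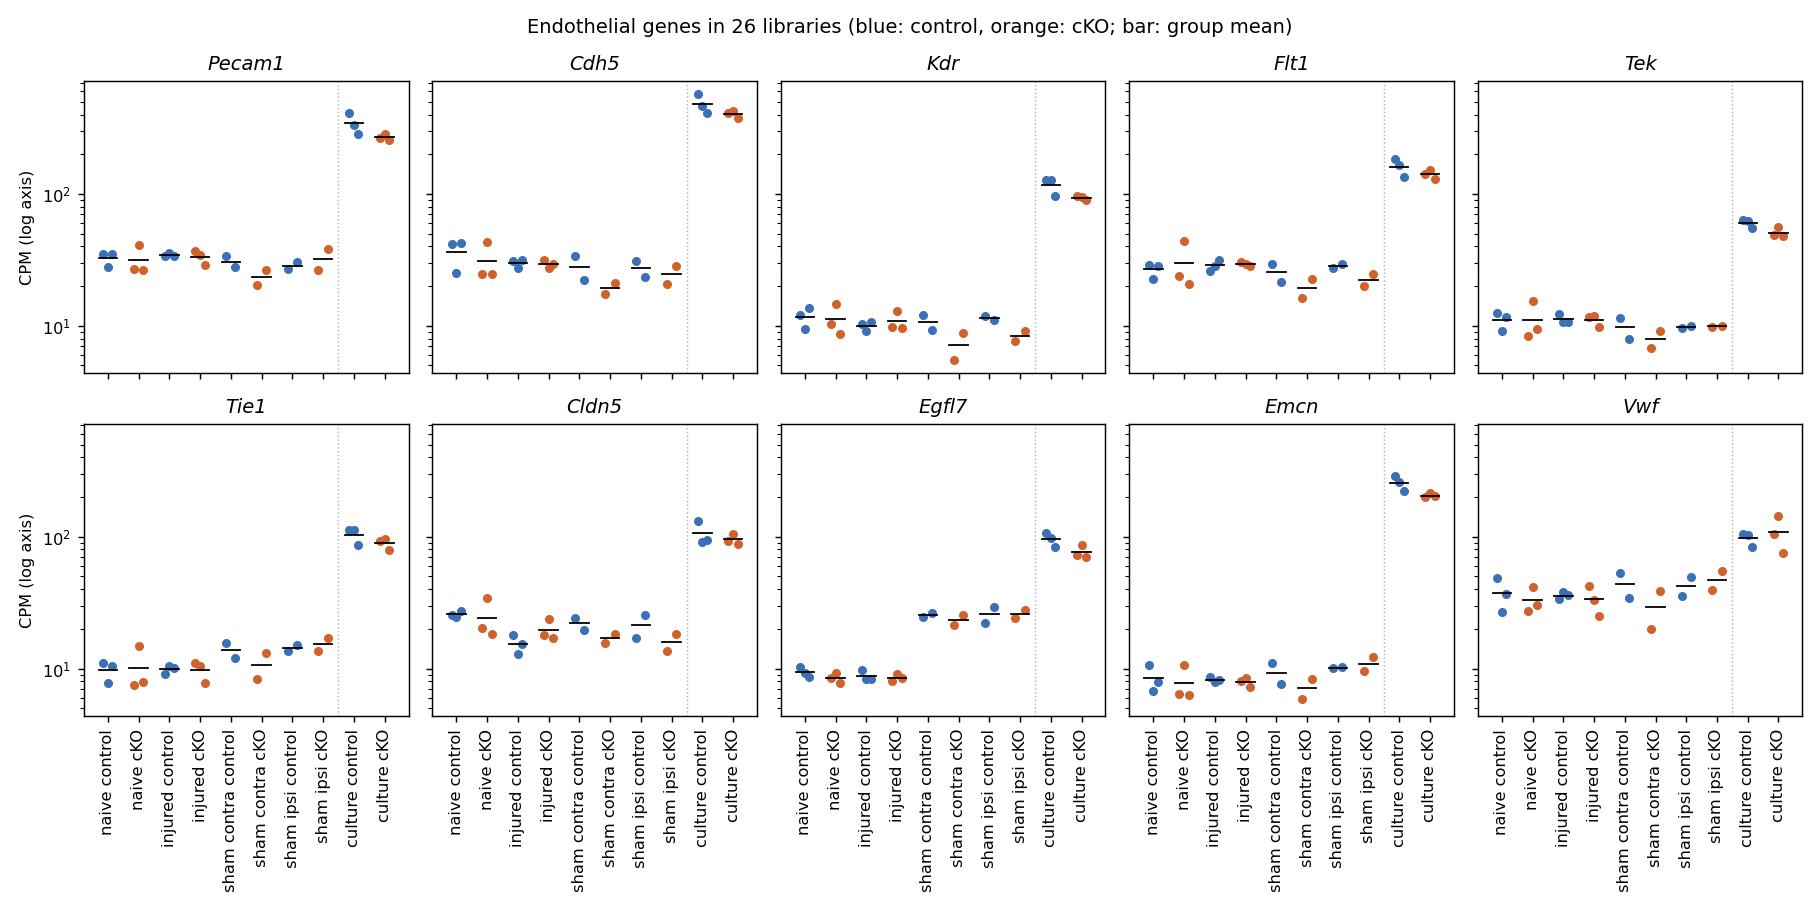
CPM (log axis) of each of the 10 genes in 26 libraries, by group; points are libraries, bars group means, blue control and orange cKO. In every panel the 6 cultures, right of the dotted line, lie above all 20 ganglion libraries.

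The main comparison set the 6 cultures against the 4 sham contralateral ganglia, which are in the same deposited table. All 10 genes were called higher at an adjusted p under 0.05. Calls were common in this comparison: 76.2% of the 23958 genes tested were called, 37% as higher, and 32.2% were higher with no overlap between libraries. The median log2 fold change was 2.87 over the 10 genes and -0.03 over all genes tested. Against the 6 naive ganglia, which are in the other table, all 10 were again called higher (88.1% of 22185 genes were called, 44.2% higher, and 38.4% higher with no overlap), with a median of 3.23 over the 10 genes.

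*Emcn*, which encodes the surface sialomucin endomucin of capillary and venous endothelium, had 198 to 289 CPM in the cultures (median 218, n = 6). In the 20 ganglion libraries it had 5.91 to 12.3 CPM (median 8.24). The lowest culture was thus 16.1 times the highest ganglion library. The fold over sham contralateral ganglia was 28.0 (log2 4.81 ± 0.15 SE, adjusted p = 1.35e-09), and over naive ganglia 28.5.

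*Cdh5*, the adhesion molecule of endothelial junctions, had 379 to 570 CPM in the cultures (median 416) and 17.3 to 42.9 in the ganglia (median 28.1). Its fold over sham contralateral ganglia was 18.9 (log2 4.24 ± 0.16 SE, adjusted p = 3.62e-09). *Pecam1*, which encodes CD31 and is shared with platelets and some leukocytes, had 257 to 410 CPM in the cultures (median 286) and 20.4 to 40.7 in the ganglia (median 32.0). That is an 11.3-fold difference over sham contralateral ganglia (log2 3.49 ± 0.13 SE). *Cldn5*, the tight junction claudin, differed less, at 88.8 to 132 CPM in the cultures (median 93.6) and 12.8 to 34.4 in the ganglia (median 18.3), a 5.17-fold difference (log2 2.37 ± 0.13 SE).

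Among the receptors, *Kdr* (VEGFR2, the main signalling receptor of VEGF-A) had 89.97 to 128 CPM in the cultures (median 96.8) and 5.49 to 14.7 in the ganglia (median 10.1). *Flt1* (VEGFR1, also made as a soluble VEGF trap) had 130 to 183 CPM (median 147) and 16.3 to 44.1 (median 27.8). The log2 fold changes over sham contralateral ganglia were 3.58 ± 0.15 SE for *Kdr* and 2.76 ± 0.14 SE for *Flt1*. Their 95% intervals, 3.25 to 3.90 and 2.45 to 3.06, did not overlap, and the difference between the 2 genes was not tested.

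*Tie1*, an orphan receptor that pairs with TIE2, had 79.5 to 113 CPM in the cultures (median 94.98) and 7.45 to 17.1 in the ganglia (median 10.7), with a log2 fold change of 2.98 ± 0.15 SE. *Tek*, the angiopoietin receptor, had 47.9 to 63.7 CPM in the cultures (median 55.7) against 6.83 to 15.3 in the ganglia (median 9.94), and a log2 fold change of 2.64 ± 0.13 SE. All 4 receptors were therefore between 6.25-fold (*Tek*) and 11.9-fold (*Kdr*) higher in the cultures than in sham contralateral ganglia. Against sham contralateral ganglia the genes of both secreted proteins of the list had the smallest differences, which against naive ganglia held for *Vwf* but not for *Egfl7*. *Vwf*, the von Willebrand factor that endothelial cells store for clotting, had 75.7 to 142 CPM in the cultures (median 104) and 19.95 to 55.1 in the ganglia (median 36.4). It was 2.82-fold higher than in sham contralateral ganglia (log2 1.498 ± 0.229 SE, adjusted p = 0.000137), and its lowest culture was only 1.37 times the highest ganglion library.

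*Egfl7*, a secreted protein of endothelial cells whose introns host a microRNA, had 70.0 to 108 CPM in the cultures. Its ganglion level differed between the deposited tables, at 7.78 to 10.2 CPM in naive and injured ganglia and 21.4 to 29.5 in sham ganglia. Its log2 fold change was therefore 1.80 ± 0.10 SE against sham contralateral ganglia and 3.28 ± 0.09 SE against naive ganglia. Whether reads shared with *Gm20532* were counted alike in both tables was not tested, so the value of *Egfl7* across tables is uncertain. Of the other 9 genes *Cdh5* differed most between both comparisons, with log2 fold changes of 4.24 and 3.73.

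**Figure D2:**
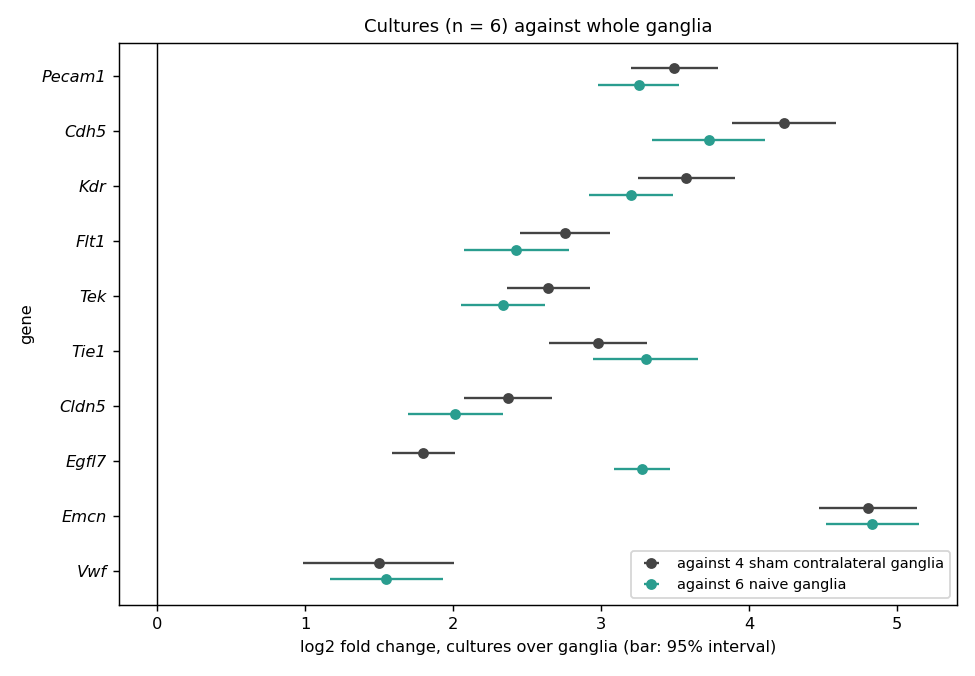
Log2 fold change of each gene in 6 cultures over sham contralateral (gray) and naive (green) ganglia, with 95% intervals from the edgeR fits. All intervals lie above 0, *Emcn* farthest and *Vwf* nearest, and *Egfl7* alone has clearly separate values.

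The 10 genes differ in length, so their order was read per kilobase of exon; the counts include introns, which makes this scale approximate for long genes. In the cultures the medians of CPM per exon kilobase were 99.1 for *Cdh5*, 66.1 for *Cldn5*, 45.9 for *Pecam1*, 40.2 for *Emcn*, 23.6 for *Egfl7*, 19.3 for *Tie1*, 11.8 for *Tek*, 10.9 for *Flt1*, 10.7 for *Kdr* and 6.47 for *Vwf*. Neighbours in this order overlapped over libraries except at 3 steps, below *Emcn* (lowest 36.7 against 30.0 for the highest *Egfl7* library), below *Tie1* (16.2 against 14.2 for *Kdr*) and above *Vwf* (8.86 against 9.62 for *Flt1*). In the ganglia the order was read within each set by its mean. *Cldn5* was first in naive, injured and sham ganglia (17.7, 12.4 and 13.4 CPM per exon kilobase), and *Kdr* was last in each (1.27, 1.15 and 1.05), with *Emcn* next to it (1.496, 1.492 and 1.733). *Cdh5* (7.99 and 7.10) and *Pecam1* (5.15 and 5.45) followed *Cldn5* in naive and injured ganglia. In sham ganglia *Egfl7* (7.03) came before *Cdh5* (5.90) and *Pecam1* (4.62), where it had 2.48 and 2.41 in naive and injured ganglia. On this scale *Emcn* was above *Kdr* alone in each ganglion set and above 6 of the genes in the cultures. The order depended on the scale: by the deposited FPKM, which is per gene span with introns, *Cldn5* was first and *Tek* last in the cultures (70.9 and 0.410) and in every ganglion set. *Emcn* was above *Tek* alone in the ganglion sets and above 4 of the genes in the cultures on that scale.

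Other genes of vessels and of vascular growth factor signalling were read from lists of their own, again by count and median. Over all genes, 37% were called higher against sham contralateral ganglia (76.2% called, median log2 fold change -0.03) and 44.2% against naive ganglia. Of 16 further surface and barrier genes of endothelium, 16 were called higher in cultures than in sham contralateral ganglia (median log2 fold change 2.31). The largest was *Dll4*, the Notch ligand of sprouting tip cells, at 115 to 161 CPM in the cultures and 1.36 to 3.21 in all sham ganglia (log2 5.88 ± 0.16 SE). *Notch4* (4.82), *Robo4* (4.47) and *Apln* (3.26), genes of Notch, Robo and apelin signalling in vessels, followed. Against naive ganglia 14 of the 16 were higher and 2 lower.

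Of 12 transcription factors of endothelium, 10 were called higher and 1 lower against sham contralateral ganglia (median 2.20). *Sox7* (4.84 ± 0.12 SE), *Erg* (3.95 ± 0.19 SE), *Ets1* (3.33 ± 0.12 SE) and *Sox18* (3.30 ± 0.19 SE) had the largest log2 fold changes. Of 5 adhesion genes by which activated endothelium binds leukocytes, 4 were called higher, *Vcam1* (log2 5.19 ± 0.19 SE), *Selp* (4.48 ± 0.21 SE), *Sele* (4.42 ± 0.26 SE) and *Icam1* (3.54 ± 0.23 SE). *Vcam1* went from 5.66 to 11.7 CPM in sham ganglia to 210 to 332 in the cultures. The fifth, *Ackr1*, was called lower and is uncertain, since an overlapping gene has several times its counts.

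Of 12 ligands and further receptors of these pathways, 9 were called higher and 2 lower against sham contralateral ganglia (median 1.37). *Vegfa*, the ligand of both VEGF receptors, had 121 to 160 CPM in the cultures and 49.5 to 62.1 in sham ganglia, a log2 fold change of 1.45 ± 0.08 SE. *Angpt1*, the agonist ligand of TIE2, fell by 2.42 on the log2 scale (SE 0.14), from 4.17 to 5.70 CPM in sham ganglia to 0.714 to 1.05 in the cultures. *Angpt2*, its context-dependent antagonist, was 3.46 higher on the log2 scale, but *Angpt2* overlaps a gene with 135% of its counts and is uncertain.

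The lymphatic VEGF receptor *Flt4* (4.28 ± 0.16 SE), the TGF-beta co-receptor *Eng* (3.25 ± 0.18 SE, with an overlapping gene at 20.1% of its counts) and the VEGF co-receptor *Nrp1* (0.56 ± 0.04 SE) were called higher on the log2 scale. *Vegfc*, a ligand of FLT4, rose by 1.05 ± 0.15 SE, from at most 1.63 CPM in sham ganglia to at most 3.27 in the cultures, a call that was lost in the control groups alone (0.43, adjusted p = 0.115). Against naive ganglia *Vegfc* was 0.49 ± 0.15 SE higher, and 0.09 (adjusted p = 0.702) in the control groups alone. *Vegfb*, a ligand of VEGFR1, fell by 0.77 (SE 0.06) against sham contralateral ganglia and was 0.14 higher (SE 0.06) against naive ganglia, a call that was lost in 15 of 18 alternatives (adjusted p up to 0.42).

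**Figure D3:**
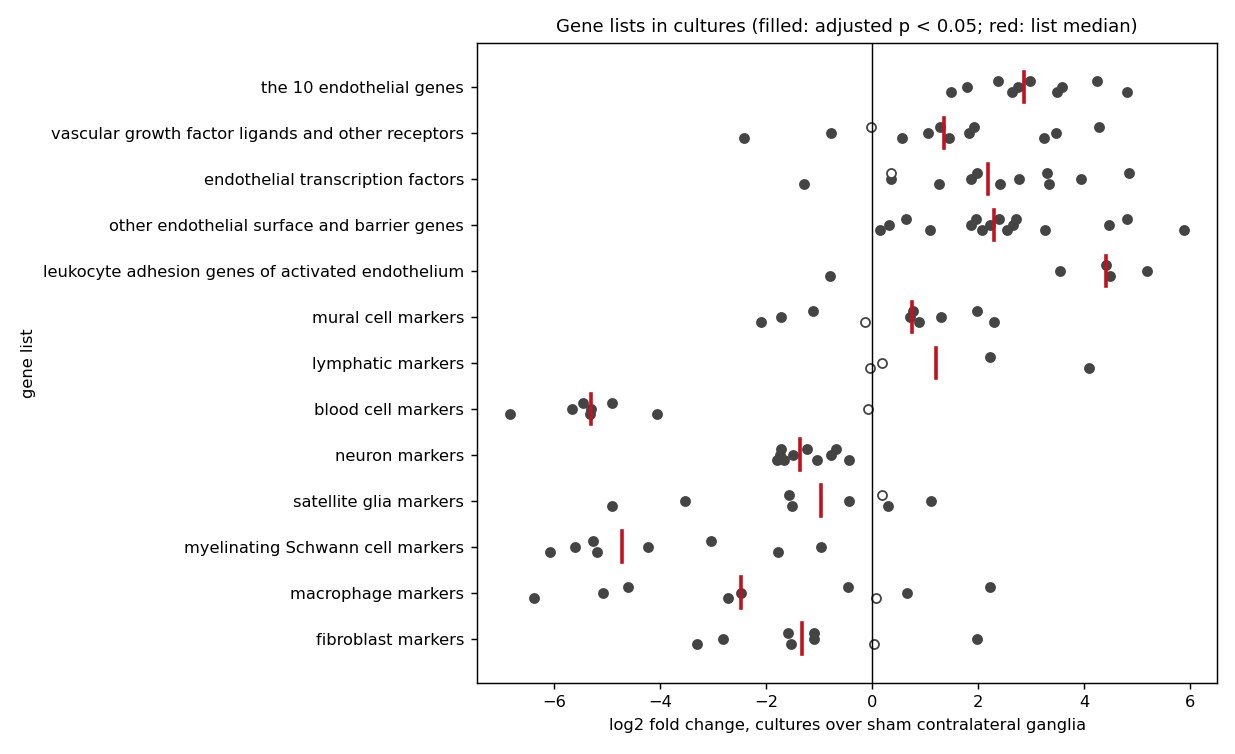
Log2 fold changes in 6 cultures over 4 sham contralateral ganglia for the 10 endothelial genes and 12 further gene lists; each point is a gene, filled where the adjusted p was under 0.05, and red bars are list medians. The 10 genes all lie right of 0, and all neuron, myelinating Schwann cell and blood cell markers lie left of it.

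Markers of other cells moved in the same comparison, where 76.2% of all genes were called, 37% as higher and the rest as lower. Against naive ganglia 88.1% were called, 44.2% as higher. All 10 neuron markers were lower in cultures than in sham contralateral ganglia (median log2 fold change -1.36), and 8 of 10 were lower and 2 higher than in naive ganglia, with summed levels of 4068 to 5003 CPM in the cultures, 9922 to 11767 in sham and 7640 to 8949 in naive ganglia. All 8 markers of myelinating Schwann cells were lower (median -4.71, sums of 638 to 776 CPM against 3094 to 5427 in sham ganglia). Of the 8 blood cell markers 7 were lower (median -5.30, sums of 7.11 to 29.3 against 272 to 951 CPM). No defining marker of these lists was at 0 counts throughout. Mural cell markers were split, with 6 of 10 higher and 3 lower: *Abcc9* (2.31) and *Kcnj8* (1.98) rose, and *Acta2*, smooth muscle actin, fell by 2.10 on the log2 scale. *Des*, desmin, fell by 1.73. Of the macrophage markers 6 of 9 were lower and 2 higher, of the fibroblast markers 6 of 8 lower and 1 higher, and of the satellite glia markers 5 of 8 lower and 2 higher. Of the lymphatic markers 2 of 4 were higher, among them *Pdpn* (2.23).

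Among the myelin genes, *Mag* (-5.61), *Ncmap* (-5.27) and *Prx* (-5.197) were lower on the log2 scale. The globin genes *Hbb-bt* (-6.82), *Hba-a1* (-5.65), *Hbb-bs* (-5.46) and *Hba-a2* (-5.31) led the blood cell markers; globin copies share sequence, so their split is uncertain. The macrophage markers *C1qa* (-6.37), *C1qb* (-5.08), *Cd163* (-4.60) and *Mrc1* (-2.72) were lower. *Cd68* (2.22) and *Cx3cr1* (0.66, with an overlapping gene at 41.1% of its counts), both named after their values were seen, were higher. The summed macrophage level was 175 to 194 CPM in the cultures and 162 to 198 in sham ganglia. Of the satellite glia markers *Fabp7* (-4.91), *Kcnj10* (-3.52) and *Erbb3* (-1.57) were lower. Neuron markers differed less, with *Nefh* at -1.80, *Elavl4* at -1.71, *Rbfox3* at -1.67 and *Tubb3* at -1.73, the last with an overlapping gene of several times its counts. Among fibroblast genes *Fbln1* (-3.30), *Col1a1* (-1.60) and *Col1a2* (-1.53) were lower and *Pdgfra* was higher (1.99). The part of these shifts in the levels of the 10 genes was not tested. Cultures and sham ganglia also differ in labelled sex and surgery, and cultures and naive ganglia in the deposited table and in the stated tamoxifen, so these cannot be told apart from culture.

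Injury left the level of most of the 10 genes within the spread of the libraries. In control mice 1 of the 10 was called, *Cldn5*, which was lower (21.6% of all 21261 genes were called and 8.73% as lower). The 3 naive control libraries had 25.4, 24.6 and 27.1 CPM of *Cldn5*, and the 3 injured control libraries 17.9, 12.8 and 15.4. The groups did not overlap, and the log2 fold change was -0.74 ± 0.21 SE (adjusted p = 0.0264). The call was lost when naive control 1 (adjusted p = 0.052), naive control 3 (0.0744), injured control 2 (0.104) or injured control 3 (0.0632) was left out, with log2 fold changes of -0.75, -0.70, -0.63 and -0.75. It was also lost without both libraries at odds with their labelled sex (-0.75, adjusted p = 0.0547).

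In cKO mice 0 of the 10 genes were called by edgeR or DESeq2 after injury (18.6% of all genes were called by edgeR; 0 of the 10 and 6552 of all 21261 genes had an unadjusted p under 0.05). *Cldn5* had 20.2, 34.4 and 18.4 CPM in naive and 18.0, 23.9 and 17.0 in injured cKO libraries, which overlap (log2 fold change -0.32 ± 0.21 SE, adjusted p = 0.331; without naive cKO 2, *Cldn5* was at -0.00975). The difference between the genotypes in the injury effect on *Cldn5* was 0.42 ± 0.30 SE (95% interval -0.23 to 1.06, adjusted p = 1), and 0.25 to 0.74 with 1 library left out, highest without naive cKO 2. No gene was called for that difference (0% of 21261 genes by edgeR and 0 by DESeq2, with 627 at an unadjusted p under 0.05).

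The other 9 genes had log2 fold changes of -0.27 (*Cdh5*) to 0.11 (*Flt1*) in control mice. In cKO mice they had -0.08 (*Kdr*) to 0.08 (*Pecam1*). The 95% interval that reached farthest from 0 was that of *Cdh5* in control mice (-0.75 to 0.20), and changes anywhere inside these intervals remain possible. *Kdr* had 12.01, 9.53 and 13.7 CPM in naive control and 10.3, 9.07 and 10.7 in injured control libraries. *Tek* had 12.6, 9.19 and 11.6 against 12.4, 10.8 and 10.8. Both pairs of groups overlapped.

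**Figure D4:**
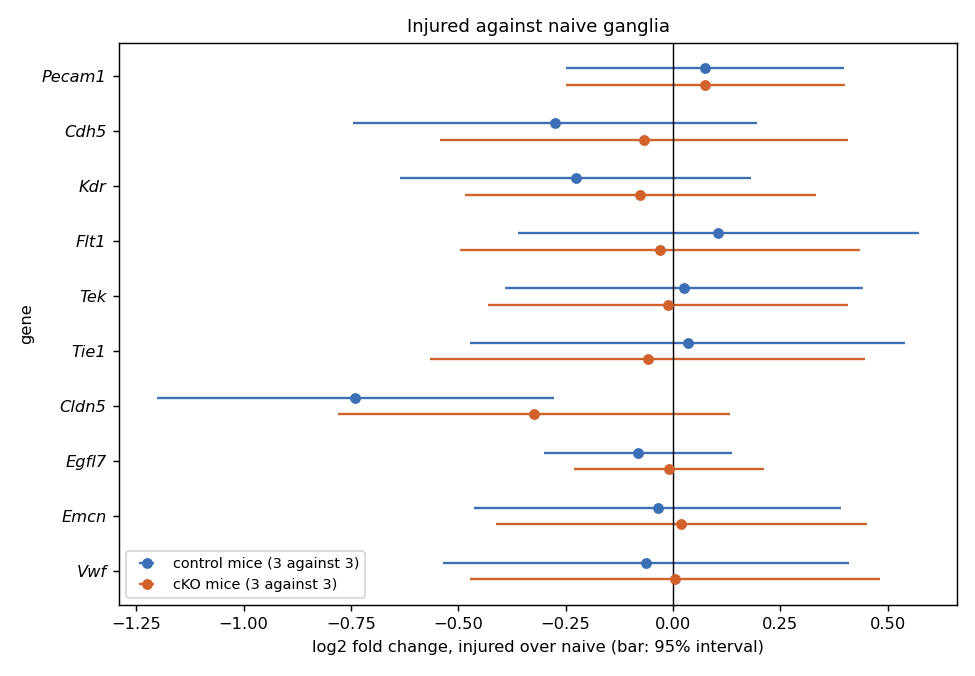
Log2 fold change after nerve crush for each gene in control (blue) and cKO (orange) mice, 3 injured against 3 naive libraries each, with 95% intervals from the edgeR fit. Only the interval of *Cldn5* in control mice, centred at -0.74, excludes 0.

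The counts in the other lists stand beside 21.6% of all genes called after injury in control mice (8.73% as lower) and 18.6% in cKO mice. Of the 12 other ligands and receptors, the same 3 were called lower after injury in both genotypes: *Pgf*, placental growth factor (-0.67 ± 0.12 SE in control and -0.52 ± 0.12 SE in cKO), *Nrp2*, a co-receptor for VEGF-C and semaphorins (-0.34 and -0.37), and *Vegfb* (-0.32 and -0.30). *Sox7* was the 1 of 12 transcription factors called in both, and was higher (0.94 ± 0.19 SE and 1.47 ± 0.19 SE), at 1.23 to 1.93 CPM in naive and 3.21 to 5.13 in injured libraries. Of the 16 surface and barrier genes 2 were called in control and 3 in cKO mice, beside 21.6% and 18.6% of all genes. *Slc2a1*, the glucose transporter of barrier vessels and of other cells, was called in both and was 1.20 and 1.08 higher, with an overlapping gene at 46.0% of its counts. *Apln* was lower in control mice (-0.55 ± 0.14 SE), where 2 of 10 mural cell genes, *Rgs5* (0.41 ± 0.08 SE) and *Cspg4* (-0.72 ± 0.20 SE), were also called. These 3 had adjusted p-values of 0.83, 0.0823 and 0.442 in cKO mice. The call of *Apln* was lost in 3 of 15 alternatives (adjusted p 0.0511 to 0.0826) and that of *Cspg4* in 5 (0.0532 to 0.103). In cKO mice *Cd34*, a surface sialomucin of vessels and blood progenitors (-0.28 ± 0.08 SE, with an overlapping gene at 62.6% of its counts), and the adhesion molecule gene *Mcam* (0.24 ± 0.07 SE) were called, and these calls were lost in 6 and 8 of 15 alternatives. Of the other cells' markers, *Pdpn* (0.34 and 0.44) and *Glul* of satellite glia (0.58 and 0.48) were higher and *Isl1* of neurons (-0.33 and -0.32) lower after injury in control and cKO mice. The call of *Pdpn* in control mice was lost in 7 of 15 alternatives (adjusted p 0.0667 to 0.129). In control mice *Fabp7* (-0.35) and *Kcnj10* (0.33) were also called, and in cKO mice *Rbfox3* (-0.26), *Ppbp* (-2.36), *Hba-a2* (-1.0005) and *Hba-a1* (-0.93). Of these, *Kcnj10*, *Hba-a2* and *Hba-a1* lost the call in 5 alternatives each and *Rbfox3* and *Ppbp* in 6 each. The genotypes' injury effects were not shown to differ for any of these genes.

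Between genotypes 0 of the 10 genes were called in naive, injured or sham ganglia or in cultures, by edgeR or by DESeq2. At an unadjusted p under 0.05 there were 0 of the 10 in naive and injured ganglia (where 1232 and 579 of 21261 genes had one) and 0 in sham ipsilateral ganglia (1682 of 22160). There were 1 in sham contralateral ganglia (*Kdr*; 1160 of 22160) and 5 in the cultures (1863 of 23295). In the naive and in the injured ganglia 0.00941% of the 21261 genes were called in each, in the sham ipsilateral ganglia 0.00451% of 22160, and in the sham contralateral ganglia and in the cultures 0%. DESeq2 called 31 genes in sham contralateral ganglia and 163 in the cultures. It also called more genes than edgeR in sham ipsilateral ganglia, as given in the closing section. The largest difference of the 10 in naive ganglia was that of *Cdh5* (-0.23 ± 0.22 SE, 95% interval -0.70 to 0.24), and the smallest p that of *Egfl7* (-0.13 ± 0.10 SE). In injured ganglia *Cldn5* had both (0.34 ± 0.21 SE, 95% interval -0.12 to 0.81).

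In the cultures 9 of the 10 genes had a log2 fold change below 0 in cKO against control, with a median of -0.26 over the 10 and -0.00340 over all genes. *Pecam1* had 267, 285 and 257 CPM in the cKO cultures and 410, 334 and 286 in the control cultures, a log2 fold change of -0.35 ± 0.13 SE (adjusted p = 0.587), which was -0.19 without control 1. *Emcn* had 198, 213 and 202 CPM against 289, 259 and 222 (-0.33 ± 0.10 SE, adjusted p = 0.547, the lowest of the 10). The cKO cultures lay below all control cultures for 3 of the 10 genes, a pattern shown by 7.69% of the 23295 genes tested. The 5 genes with an unadjusted p under 0.05 were *Pecam1*, *Kdr*, *Tek*, *Egfl7* and *Emcn*, named here after their values were seen. *Vwf* went the other way, at 106, 142 and 75.7 CPM in cKO and 104, 103 and 83.4 in control cultures (0.15 ± 0.20 SE), which overlap. In the same cultures other lists moved too, with 0 of their genes called. Further surface and barrier genes of endothelium were below 0 for 15 of 16 (median -0.22) and its transcription factors for 11 of 12 (median -0.18), while its leukocyte adhesion genes were above 0 for 5 of 5 (median 0.28). Blood cell markers were above 0 for 6 of 6 tested (median 1.11), macrophage markers for 7 of 9 (0.41), fibroblast markers for 6 of 8 (0.20) and neuron markers for 6 of 10 (0.16). Myelinating Schwann cell markers were below 0 for 8 of 8 (-0.13) and mural cell markers for 9 of 10 (-0.14). Their part in the values of the 10 genes was not tested.

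In the sham ganglia *Kdr* had the largest difference and the smallest p on both sides. On the contralateral side it had 5.49 and 8.74 CPM in cKO and 12.2 and 9.37 in control mice, which do not overlap (-0.60 ± 0.23 SE, adjusted p = 0.88). With 1 library left out it ranged from -0.98 (without cKO 2) to -0.30 (without cKO 1). On the ipsilateral side it had 7.72 and 9.06 against 11.9 and 11.05 (-0.42 ± 0.23 SE, adjusted p = 0.773), again without overlap. A lack of overlap is easily reached with 2 libraries per group, and its share over all genes was not taken. Of the 10 genes 4 were lower without overlap on the contralateral side, and 2 were lower and 1 higher on the ipsilateral side. All 10 genes were below 0 on the contralateral side and 4 of 10 on the ipsilateral side. On the contralateral side 13 of 16 further surface and barrier genes of endothelium (median -0.37) and 11 of 12 of its transcription factors (-0.13) were also below 0. So were 5 of 5 leukocyte adhesion genes (-0.48), 8 of 10 mural cell markers (-0.29) and 8 of 8 blood cell markers (-0.64). Above 0 were 8 of 8 myelinating Schwann cell markers (0.16), 8 of 10 neuron markers (0.11) and 6 of 8 fibroblast markers (0.07). The part of these lists in the values of the 10 genes was not tested. Both comparisons use the same mice, 2 per genotype. Between sides 0 of the 10 genes were called by edgeR (0.00451% of 22160 genes, which is 1 gene, and 4 genes with the mouse as a block, 0 of them among the 10) or by DESeq2, and 1 of the 10 had an unadjusted p under 0.05, as did 1675 of all genes. The log2 fold change was above 0 on the operated side for 9 of the 10 (median 0.20, and 0.01 over all genes). It was also above 0 for 12 of 12 transcription factors of endothelium (median 0.19) and 4 of 5 of its leukocyte adhesion genes (0.41). The same held for 8 of 8 blood cell markers (0.20) and 8 of 9 macrophage markers (0.11). It was below 0 for 8 of 8 myelinating Schwann cell markers (-0.30), 7 of 10 neuron markers (-0.04) and 6 of 10 mural cell markers (-0.06). Of these lists 0 genes were called, and their part in the values of the 10 genes was not tested. *Emcn* had the smallest p, with 9.503 and 12.3 CPM on the ipsilateral and 5.91 and 8.35 on the contralateral side of the cKO mice, and 10.1 and 10.2 against 10.9 and 7.64 in the control mice (0.40 ± 0.16 SE, adjusted p = 0.645).

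In some groups of ganglia most of the 10 genes deviated in the same direction within a library. In the injured control group they did not, with 6, 3 and 6 of the 10 above the group mean in its 3 libraries and mean deviations of 0.03, -0.05 and 0.02 on the log2 scale. Naive cKO 2 was the highest of its group for 10 of 10 genes, by a mean of 0.47 on the log2 scale over the group mean. *Flt1* had 44.1 CPM there against 24.0 and 20.9 in the other naive cKO libraries, and *Tie1* 14.7 against 7.45 and 7.91. Naive control 2 was the lowest of its group for 9 of 10 genes, at a mean of -0.26. In the sham contralateral cKO pair the second library exceeded the first for 10 of 10. In naive cKO 2 every other list but that of neuron markers (-0.08) was also above its group mean. These ranged from 0.21 for the ligands and other receptors to 0.66 for lymphatic markers. Markers of myelinating Schwann cells were at 0.54, of fibroblasts at 0.42, of mural cells at 0.35 and of satellite glia at 0.24. What else differed in these libraries was not tested.

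The 5 genes outside the list whose within-group deviations over the 20 ganglion libraries were most like the mean deviation of the 10 were *Grap* (Pearson r 0.987), *Sh2b3* (0.966), *Mylk* (0.947), *Myh11* (0.946) and *Hspb2* (0.944), of 14578 genes compared. These r values are descriptions over libraries that share composition and depth, and paired sides share a mouse. *Grap* had a mean of 4.18 CPM in ganglia and 30.6 in the cultures and *Sh2b3* 18.0 and 57.4. *Mylk* and *Myh11*, both contractile genes of smooth muscle, were not higher in the cultures, with means of 12.6 and 9.18 CPM for *Mylk* and 11.1 and 7.39 for *Myh11*.

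**Figure D5:**
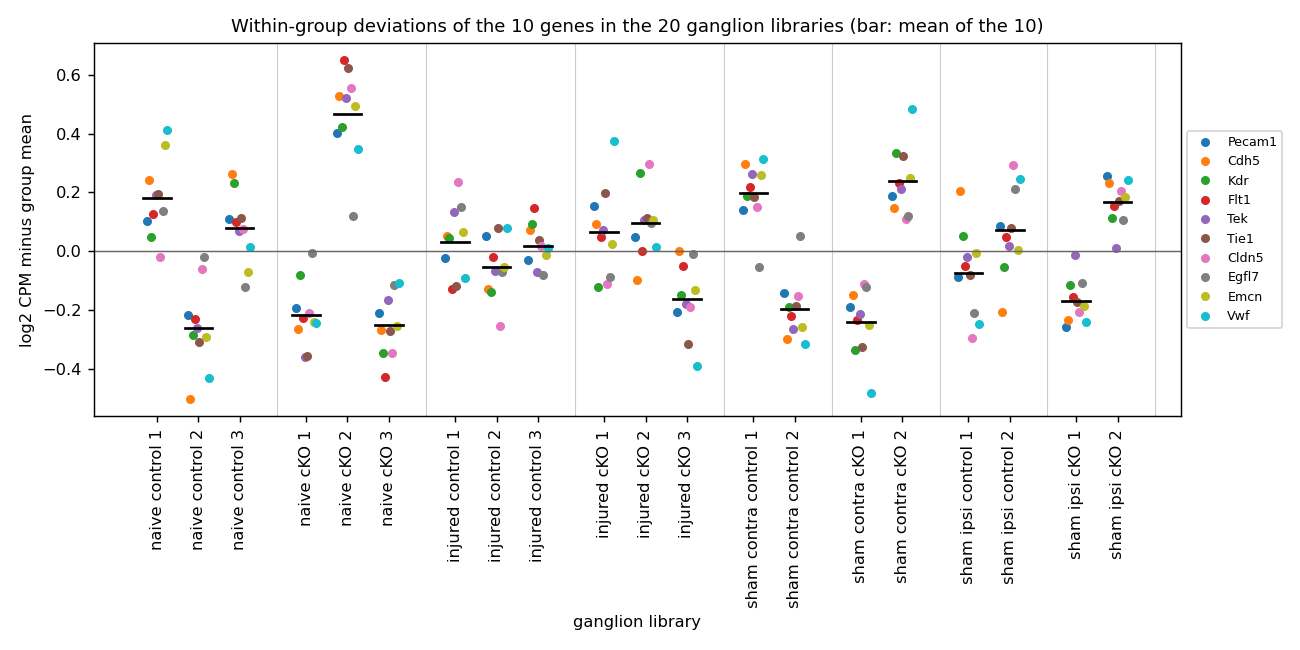
Deviation of each gene's log2 CPM from its group mean in the 20 ganglion libraries; colors are genes and bars the mean of the 10. In several libraries the genes lie on 1 side of 0, highest in naive cKO 2 at a mean of 0.47, and spread around 0 in the injured control libraries.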

How the data were processed

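RNA was extracted with an RNeasy Plus Mini kit and sequenced from TruSeq Stranded mRNA libraries, per the labels' protocols. The authors deposited whole-number counts per gene and a matching FPKM for 12 libraries of naive and injured ganglia and, in a supplemental table, for 14 of cultures and sham ganglia. The submitters' processing notes name Trim Galore, HISAT2, featureCounts and mm10, in no stated order. From the values, the deposited FPKM is scaled to gene length with introns included.

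Identifiers were matched to GENCODE M21 (55141 of 55401). Counts were tested with edgeR 4.0.16 in R 4.3.3 (filterByExpr with minimum count 10 and minimum total 15, TMM, quasi-likelihood F test, 1 mean per group, Benjamini-Hochberg over all genes tested, two-sided, adjusted p under 0.05). The fits were of 10 libraries (cultures and sham contralateral ganglia), 12 (cultures and naive ganglia), 12 (naive and injured), 6 (cultures) and 8 (sham). A standard error is the log2 fold change over the square root of F. Within-group deviations use log2 CPM with a prior count of 2. The fits were run on simulated counts in which few genes changed, equally up and down. That does not test fits where most genes were called, as with the cultures. Libraries of a group differed beyond sampling noise in every pair (the lowest ratio of chi-square to its degrees of freedom was 3.14). The labels number mice but do not always say that libraries are separate litters or cultures, so p-values measure the spread between these samples.

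All 10 genes are described in the culture and injury comparisons; in the others, those called or else the ones with the largest fold change and the smallest p. Of each other list up to 4 called genes of at least 1 CPM with the largest fold changes are named in the injury comparisons and that of cultures with sham contralateral ganglia, with *Vegfa*, *Vegfb*, *Vegfc*, *Angpt1*, *Angpt2*, *Flt4*, *Eng* and *Nrp1* by role; some genes that this rule covers are not reported here. The 10 genes, the lists and the rules were chosen with earlier results of these data known. Alternatives were DESeq2 1.42.0, RLE factors, other filters, an adjusted p under 0.1, limma 3.58.1 (with trend) on log2(FPKM + 0.1) from the deposited FPKM, each library left out, a replicate block, sex read from the counts, the control groups alone and, for the cultures, sham ipsilateral ganglia. FPKM was not tested across tables. Per the labels the sides of a sham mouse are from the same animal, and the deviations of its libraries from their group means correlated at -0.16 (cKO) and 0.23 (control).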

Additional observations from a re-analysis of the deposited data

How the results depend on the processing

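All 10 genes were called higher in the cultures under each of the 18 alternatives against sham contralateral and the 18 against naive ganglia, and the median log2 fold change of the 10 stayed between 2.62 and 3.01 and between 3.13 and 3.35. With no filter the median over all genes moved to 0.22 and 0.40. Of 877 and 893 refits of the list genes named there, 875 and 877 kept their call and direction and 0 reversed. The calls lost were *Col1a1* and *Vegfc* in the control groups alone, and *Vegfb* against naive ganglia in 15 refits (0.08 to 0.15). After injury 175 of 195 refits of the named list genes kept their call in control and 167 of 210 in cKO mice, and 0 reversed. Those lost in cKO mice were *Mcam* (8), *Cd34*, *Ppbp* and *Rbfox3* (6 each), *Hba-a1* and *Hba-a2* (5 each), *Isl1* (2) and *Pgf*, *Nrp2*, *Vegfb*, *Pdpn* and *Glul* (1 each).

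The count of called genes after injury in control mice was 1, and 0 without both libraries at odds with their labelled sex; leaving out 1 library gave 0 to 1, with *Cldn5* at -0.87 to -0.63. In the other comparisons of injury, genotype and side it was 0 in every alternative run. Genes near 0 after injury changed sign. In control mice limma on FPKM gave *Tek* -0.0184 and *Tie1* -0.0193. In cKO mice *Vwf* was -0.00241 with at least 10 counts in every library and -0.0243 by limma on FPKM; with sex from the counts as a covariate *Cdh5* was 0.0265, *Flt1* 0.0203, *Tek* 0.0593 and *Tie1* 0.129; and without both libraries at odds with their sex *Emcn* was -0.0340. Leaving out 1 library gave, in control mice, -0.17 to 0.16 (*Emcn*), -0.0238 to 0.13 (*Pecam1*), -0.0927 to 0.12 (*Tek*), -0.10 to 0.13 (*Tie1*) and -0.25 to 0.16 (*Vwf*). In cKO mice it gave -0.21 to 0.23 (*Cdh5*), -0.0730 to 0.0354 (*Egfl7*), -0.12 to 0.29 (*Emcn*), -0.24 to 0.35 (*Flt1*), -0.24 to 0.15 (*Kdr*), -0.0370 to 0.29 (*Pecam1*), -0.19 to 0.28 (*Tek*), -0.24 to 0.31 (*Tie1*) and -0.22 to 0.18 (*Vwf*). *Cldn5* ranged from -0.50 to -0.00975. Without naive cKO 2, *Cdh5*, *Egfl7*, *Flt1*, *Kdr*, *Tek* and *Tie1* turned above 0. Between genotypes it gave -0.54 to -0.10 for *Cdh5* in naive ganglia, -0.47 to -0.19 for *Pecam1* and -0.43 to -0.22 for *Emcn* in the cultures, and between sides 0.27 to 0.54 for *Emcn*.

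Naive and injured libraries, and the culture genotypes, share only a replicate number. The deviations of same-numbered libraries correlated at -0.42 to 0.41 and at 0.06 to 0.22. Each of the 6 cultures correlated best with its own number in the other genotype, though these matches are not independent of each other. The ganglia did so in 12 of 36 comparisons of a library with the 3 libraries of another group, which is the rate of a random match. With the replicate number as a block *Cldn5* stayed the 1 gene called in control mice, *Vwf* in cKO mice was -0.0151, and calls over all genes in the cultures went from 0 to 5, none of them among the 10. With the replicate number as a block in the sham ganglia 3 genes were called between genotypes on the ipsilateral side, against 1 without, and 0 of the 10.

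Calls over all genes between genotypes rose in the unfiltered fits, to 626 in sham ipsilateral and 59 in sham contralateral ganglia, and to 381 between sides. DESeq2 called 153, 31 and 200 there, and 163 in the cultures, where the unfiltered fit called 27. Over the alternatives 1 to 3 genes were called between genotypes in naive and 0 to 15 in injured ganglia, against 2 in each, and 0 to 8 for the difference in injury effect, against 0. With sex as a covariate 1414 genes were called after injury in cKO mice, against 3962. With 2 or 3 libraries per group, changes anywhere inside the 95% intervals given remain possible for the genes not called.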
